A study of Mus musculus with 30 samples.

Results

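The response to LPS was followed in proNeu2, the later of the early committed neutrophil progenitor populations that the series sorted from mouse bone marrow. The 3 libraries labelled LPS proNeu2 were compared with the 3 libraries labelled naive proNeu2 across all genes of the deposited table, 6 of the 30 libraries of the series. All of the mice were wild type, the cells are labelled bone marrow progenitor cells, and the LPS libraries carry a time of 2 days. The labels give no dose or route of LPS, no age or sex of the mice and no sort gates, so what else separates the groups cannot be told from them. For comparison, LPS and naive libraries of proNeu1, the earlier committed neutrophil progenitor, of GMP (granulocyte-monocyte progenitor) and of GMP-MoP, a population named in the series title for its mixed neutrophil and monocyte features, were used, 3 libraries for each group.

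LPS, the lipopolysaccharide of the outer membrane of Gram-negative bacteria, is sensed through the receptor TLR4 with its partners CD14 and MD-2. In the marrow, infection or LPS is known to trigger emergency granulopoiesis, in which neutrophil output rises and the transcription factor C/EBPβ takes a larger part than it does at steady state. Early neutrophil progenitors make the enzymes of the primary granules first, still divide, and turn to the secondary granule proteins as they mature.

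Expression is given in FPKM, fragments per kilobase of exon per M assigned reads, a unit that corrects for gene length and depth and measures each gene as a part of its library. Between 24.7 and 38.1 M reads per proNeu2 library were assigned to genes, and between replicates of a group the correlation over genes was 0.988 to 0.994. A gene was called when its limma adjusted p (Benjamini-Hochberg over all 11383 genes) was under 0.05 and its log2 fold change on the log2(FPKM + 1) scale was at least 1 in size, that is 2-fold. Since most differences were smaller than that, genes past the adjusted p at any size were counted as well. Fold changes are LPS minus naive, with their standard error, levels are mean ± SD of 3 libraries with LPS first and naive second, and fold ratios are ratios of the group means in FPKM. Both naive and LPS libraries held the transcripts that mark neutrophil progenitors: Mpo (myeloperoxidase) stood at 4255 ± 38.2 against 5023 ± 258 FPKM in LPS and naive libraries, Elane (neutrophil elastase) at 6761 ± 188 against 7819 ± 433 FPKM, and Cebpe, the regulator of secondary granule genes, at 439 ± 11.6 against 322 ± 11.6 FPKM. The monocyte regulator Irf8 was at 0.249 ± 0.0329 against 0.285 ± 0.0956 FPKM and the monocyte growth factor receptor gene Csf1r at 1.5 ± 0.261 against 1.61 ± 0.381 FPKM. Summed over the list, the 18 measured basophil, eosinophil and mast cell markers came to 267 to 329.97 FPKM in LPS libraries and 398 to 427 FPKM in naive ones, and the 15 erythroid and megakaryocyte markers to 59.7 to 201 FPKM and 128 to 199.8 FPKM. The 201 FPKM came from LPS replicate 2, with 59.7 and 64.4 FPKM in replicates 1 and 3. Without Tfrc, the highest of the 15, the sums were 23.8 to 157 FPKM in LPS and 45.4 to 108 FPKM in naive libraries. The 25 monocyte list genes, among them several that neutrophil progenitors also express, came to 3916 to 4199 FPKM and 3087 to 3765 FPKM. Without Ly6c2, the highest of the 25, the sums were 2110 to 2187 FPKM in LPS and 1460 to 1786 FPKM in naive libraries. At any size 7 of the 25 were higher and 0 lower, against 12.6% higher and 24.1% lower over all genes. The part of such other cells in the results below was not tested, and in sorted bulk samples fewer cells of a type and less RNA per cell cannot be told apart.

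After 2 days, 61 genes were called higher in LPS proNeu2 (0.536% of the 11383 tested) and 52 lower (0.457%). With median-of-ratios scaling, which moved the median log2 fold change of all genes from -0.07 to -0.01, the split was 88 higher and 42 lower. At any size, 1434 genes (12.6%) were higher and 2742 (24.1%) lower, 36.7% in either direction. That second split depends on the centring: it was 2061 higher and 2072 lower with median-of-ratios scaling, and 2035 higher and 1714 lower once trends with exon length and GC content were removed. Every gene named below as changed in proNeu2 kept its direction under both where it had a value. H1f2 had none with the trends removed. Of the called genes, 60 of the 61 higher and 49 of the 52 lower had 3 LPS values that did not overlap the 3 naive values, against 5436 of all genes (47.8%).

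**Figure D1:**
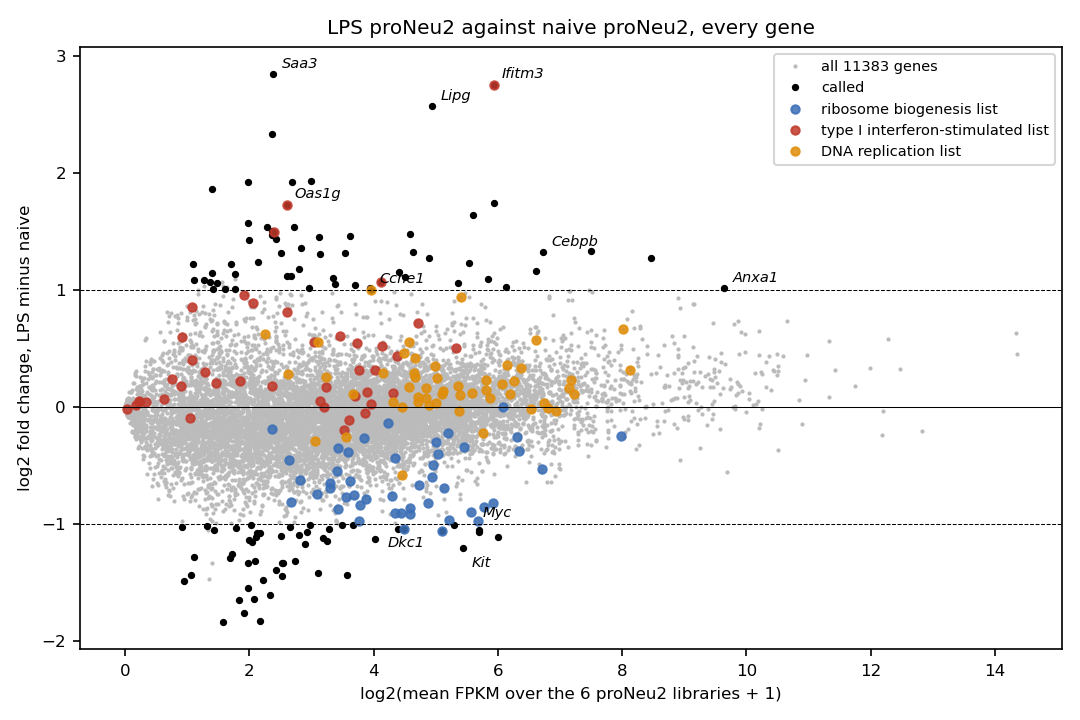
Log2 fold change (LPS minus naive, vertical axis) of every gene against its mean level over the 6 proNeu2 libraries (horizontal axis, log2 of mean FPKM + 1). Grey points are all 11383 genes and black points the 113 called genes, coloured points are members of 3 gene lists drawn over them, and dashed lines mark a fold of 2. Ribosome biogenesis genes lie below 0 (median -0.68) and most type I interferon-stimulated genes above it (median 0.23).

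Saa3, which encodes an acute phase serum amyloid A, was nearly absent from naive cells, at 0.0287, 0.195 and 0.589 FPKM in the naive libraries and 8.19, 5.74 and 10.7 FPKM in the LPS libraries (log2 fold change 2.84 ± 0.20, adjusted p = 5.50e-10). The lowest LPS library thus held several times more Saa3 than the highest naive one. Ifitm3, an interferon-induced membrane protein that restricts virus entry, stood at 12.7, 18.1 and 10.9 FPKM in the naive libraries and 53.5, 114 and 151 FPKM in the LPS libraries (log2 fold change 2.76 ± 0.26, adjusted p = 5.29e-08). All 3 LPS values lay above the naive ones, but LPS replicate 1 was the lowest of them, a spread of 49.2 FPKM around a mean of 106. Its relatives Ifitm6 (71.7, 93.5 and 115 FPKM in the LPS libraries against 26.6, 28 and 25.5 FPKM in the naive ones, 1.74, adjusted p = 4.11e-04) and Ifitm1 (2.48, 11.5 and 9.34 FPKM in the LPS libraries against 0.41, 0.516 and 0.643 FPKM in the naive ones, 2.33, adjusted p = 1.22e-05) rose as well. For Ifitm1 the same LPS library was again the lowest. These genes are close relatives, and how the authors' counting treated reads that fit more than 1 of them is not stated.

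Saa3 lies on chromosome 7, and the 140 bases before its RefSeq start (chr7:46715677-46715816, minus strand, GRCm38.p6) are shown because the gene changed most. Capitals mark a match to the interferon-stimulated response element (GAAA, any 2 bases, GAAA), which begins at position -125 from the start, and a match on the other strand to the C/EBP pattern (TTGC, any 2 bases, AA) at -99.
Saa3: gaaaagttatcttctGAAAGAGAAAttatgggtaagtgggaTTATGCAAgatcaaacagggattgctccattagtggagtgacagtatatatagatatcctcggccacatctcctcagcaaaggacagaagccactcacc
A match is a description of these letters and was not tested as a site. Of 8472 tested genes with a RefSeq window of 250 bases before to 50 after the start (the first listed start where a gene has several), 3.18% held the first pattern and 8.38% the second on either strand. Among 33 called higher genes with a window, 5 (15.2%) held the first and 6 (18.2%) the second, and among 23 called lower genes 1 (4.35%) and 3 (13.04%).

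Several enzymes and signalling genes rose with them. Lipg, which encodes endothelial lipase, was at 9.84, 5.68 and 6.8 FPKM in the naive libraries and 26.9, 64 and 64.6 FPKM in the LPS libraries (log2 fold change 2.57 ± 0.32, adjusted p = 1.49e-06), again with the lowest LPS value in replicate 1. Clu (clusterin, an extracellular chaperone) rose 5.09-fold, from 2.28 ± 0.348 to 11.6 ± 2.27 FPKM (1.93, adjusted p = 3.18e-08). Hpse (heparanase, which cleaves heparan sulphate) rose 2.85-fold (11.6 ± 0.731 against 4.06 ± 0.266 FPKM, 1.31, adjusted p = 1.66e-09). Mapk13, the p38δ kinase gene, was at 12.4 to 14.3 FPKM in naive and 30.5 to 37.7 FPKM in LPS libraries (1.32, adjusted p = 8.69e-07), and the coronin gene Coro2a at 3.42 to 3.8 and 10.9 to 13.1 FPKM (1.45, adjusted p = 6.00e-12). In each of these 5 genes the groups did not overlap. Pnp2, a purine nucleoside phosphorylase gene (1.15), Tmsb10, which encodes an actin-binding thymosin (1.23), and H1f2, a linker histone gene (1.47), were called higher too, with Rpl38-ps2 (1.64) and Atp5k (1.16), an ATP synthase subunit gene. Rpl38-ps2 is a ribosomal protein pseudogene that can share reads with near-identical copies and is uncertain.

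**Figure D2:**
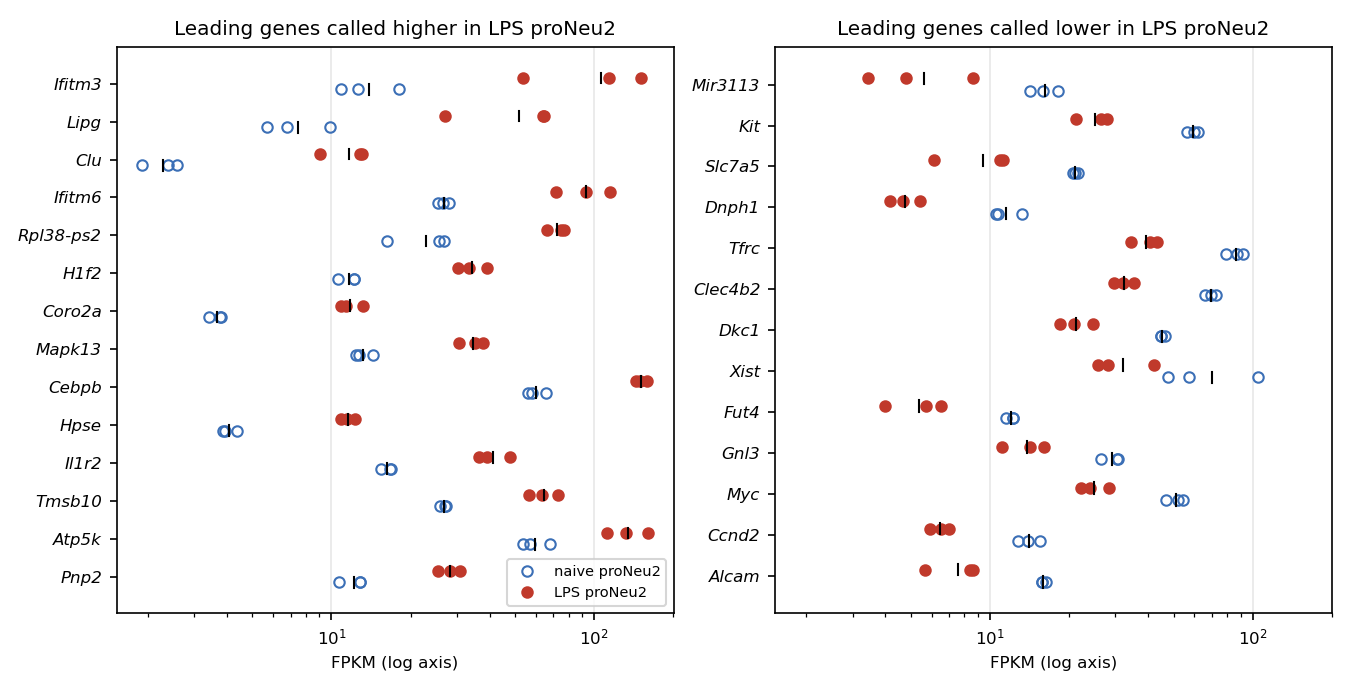
FPKM on a log axis of leading called genes, 14 higher (left) and 13 lower (right), with 1 open blue point for each naive proNeu2 library, 1 filled red point for each LPS proNeu2 library and a black tick at each group mean. In every gene drawn the 3 red points lie on one side of the 3 blue points. The LPS points of Ifitm3 run from 53.5 to 151 FPKM and those of Lipg from 26.9 to 64.6 FPKM.

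Type I interferon-stimulated genes moved in 1 direction. Of 42 measured members, 17 were higher at any size, 0 lower and 25 did not pass, with a median log2 fold change of 0.23 against -0.07 over all genes. Of all genes 12.6% were higher and 24.1% lower. The largest rises were in the OAS family, enzymes that sense double-stranded RNA and activate RNase L, together with Ifitm3. Oas1g stood at 1.98, 1.77 and 1.41 FPKM in the naive libraries and 6.37, 6.23 and 12.6 FPKM in the LPS libraries (log2 fold change 1.73 ± 0.25, adjusted p = 1.35e-05), Oas2 at 2.19, 1.02 and 1.78 FPKM in the naive libraries and 4.38, 5.37 and 10.7 FPKM in the LPS libraries (log2 fold change 1.49 ± 0.27, adjusted p = 1.70e-04) and Oas1a at 9.01, 10.9 and 10.3 FPKM in the naive libraries and 18.4, 19.99 and 29.5 FPKM in the LPS libraries (log2 fold change 1.07 ± 0.18, adjusted p = 5.28e-05). LPS replicate 3 was the highest library for each of the 3, and none of their LPS values overlapped a naive value. Summed over the list, LPS proNeu2 replicates 1, 2 and 3 came to 400, 453 and 610 FPKM. LPS proNeu1 replicates of the same numbers came to 441, 474 and 608 FPKM. Below the 2-fold limit, Oas3 (0.96), Oasl2 (0.89), Oasl1 (0.85), the ubiquitin-like Isg15 (6.76 ± 1.77 against 3.37 ± 0.605 FPKM, 0.81, adjusted p = 0.00687) and the tetherin gene Bst2 (0.72) rose too. Irf7, a transcription factor of the pathway, was at 1.15, 1.17 and 1.06 FPKM in the naive libraries and 1.12, 0.997 and 3.21 FPKM in the LPS libraries (0.30, adjusted p = 0.43), raised in LPS replicate 3 alone. Without LPS replicate 3, 8 members were higher instead of 17, and Oas1a was under the 2-fold limit at 0.87. Without naive replicate 1, 11 members were higher.

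Oas1a, Oas1g, Oas3 and Isg15 carry the response element close to their starts, so their upstream sequences are set side by side, 100 bases each up to the base before the RefSeq start, with matches to the same response element in capitals (GRCm38.p6, all on the minus strand: Oas1a chr5:120907526-120907625, Oas1g chr5:120887614-120887713, Oas3 chr5:120777660-120777759, Isg15 chr4:156200819-156200918).
Oas1a: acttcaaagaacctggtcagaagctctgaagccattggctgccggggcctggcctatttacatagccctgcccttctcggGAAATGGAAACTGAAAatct
Oas1g: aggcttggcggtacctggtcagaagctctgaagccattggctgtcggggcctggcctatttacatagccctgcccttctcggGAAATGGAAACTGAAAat
Oas3: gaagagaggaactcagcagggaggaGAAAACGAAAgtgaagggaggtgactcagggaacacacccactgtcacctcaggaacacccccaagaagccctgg
Isg15: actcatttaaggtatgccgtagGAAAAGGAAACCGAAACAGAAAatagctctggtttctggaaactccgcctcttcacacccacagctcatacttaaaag
Overlapping matches merge into 1 run: 2 in Oas1a (at -20 and -14), 2 in Oas1g (at -18 and -12), 1 in Oas3 (at -75) and 3 in Isg15 (at -78, -72 and -66). Oas1a and Oas1g share an unbroken run of 56 bases here. They are tandem copies in 1 gene cluster, so reads of one may have been counted for the other. In the list as a whole 13 of 30 members with a window (43.3%) held the pattern, against 3.18% of all genes.

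Interferon-gamma and antigen presentation genes moved less. 9 of 30 measured members were higher, 0 lower, with a median of 0.14. They were the class I heavy chain genes H2-K1 (0.37), H2-D1 (0.44), H2-Q4 (0.39) and H2-T22 (0.45), their light chain B2m (0.45), the peptide transporter Tap1 (0.40) and the proteasome subunits Psmb8, Psmb9 and Psme2 (0.21, 0.41 and 0.27). None reached a fold of 2. The class II chaperone genes H2-DMa (-0.42) and H2-DMb1 (-0.47), which are not among these 30, were lower. In the dendritic cell and MHC class II list, 1 of 12 measured members was higher, 2 lower and 9 did not pass (median -0.03). Over all genes 12.6% were higher and 24.1% lower.

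Cebpb rose 2.52-fold with little spread, from 65.8, 57.8 and 56.2 FPKM in the naive libraries to 144, 149.7 and 159 FPKM in the LPS libraries (log2 fold change 1.32 ± 0.08, adjusted p = 1.10e-10). Its relatives Cebpd (60.1 ± 0.88 against 35.1 ± 2.28 FPKM, 0.76, adjusted p = 2.78e-08) and Cebpe (0.45, adjusted p = 0.00923) rose by less, while Cebpa, the regulator of the step into the granulocyte-monocyte lineage, was lower (79.7 ± 3.57 against 97.6 ± 5.56 FPKM, -0.29, adjusted p = 0.00474). Gfi1, a repressor needed for neutrophil commitment, was at 131 ± 3.45 against 123 ± 8.55 FPKM (0.09, adjusted p = 0.606). Of the 33 measured members of the emergency granulopoiesis and STAT3 list, 12 were higher and 6 lower (median 0.12), against 12.6% higher and 24.1% lower over all genes, and with length and GC trends removed the counts were 15 and 2. Among the higher were the kinase gene Pim1 (0.78), the cytokine receptor beta chain genes Csf2rb (0.46) and Csf2rb2 (0.97), Stat3 itself (0.29) and Lrg1, a secreted glycoprotein gene (0.91). The receptor genes Csf3r for G-CSF (112 ± 6.19 against 135 ± 8.58 FPKM, -0.27, adjusted p = 0.0243), Il6ra (-0.36) and Il1rap (-0.38) passed as lower, but none of the 3 passed with length and GC trends removed, at -0.20 (adjusted p = 0.111), -0.14 (adjusted p = 0.147) and -0.16 (adjusted p = 0.231). Csf3r did not pass with median-of-ratios scaling either (adjusted p = 0.105), nor Cebpe with the trends removed (0.35, adjusted p = 0.0507).

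Il1r2, the decoy receptor for interleukin-1, a gene of maturing neutrophils, stood at 16.7, 15.5 and 16.8 FPKM in the naive libraries and 39, 36.5 and 47.7 FPKM in the LPS libraries (log2 fold change 1.27 ± 0.16, adjusted p = 2.69e-06). The 130 bases before its RefSeq start (chr1:40085963-40086092, plus strand, GRCm38.p6) are shown for the STAT pattern (TTC, any 3 bases, GAA) at position -111, in capitals. This start lies inside the annotated gene, which begins at chr1:40074079. The pattern was held by 7.02% of all windows, 6 of 33 called higher genes (18.2%) and 1 of 23 called lower genes (4.35%). Of the emergency granulopoiesis and STAT3 list 2 of 29 members (6.9%) held it. Of the mature neutrophil list described below 4 of 21 (19.05%) did.
Il1r2: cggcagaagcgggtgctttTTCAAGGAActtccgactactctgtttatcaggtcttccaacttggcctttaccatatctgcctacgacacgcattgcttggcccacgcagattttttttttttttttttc
The mature neutrophil list had 12 of 25 measured members higher, 2 lower (Csf3r and Hdc, the histamine-forming enzyme gene) and 11 that did not pass, with a median of 0.37. The shares over all genes were 12.6% higher and 24.1% lower. Higher with Il1r2, Ifitm1 and Ifitm6 were Clec4e, the Mincle receptor gene (1.12), the protease inhibitor genes Stfa1 (1.01) and Wfdc21 (0.88), and the chemokine receptor gene Cxcr2 (17.5 ± 2.13 against 9.82 ± 0.683 FPKM, 0.77, adjusted p = 0.00274). Stfa1 has near-identical relatives with which it can share reads and is uncertain, and it kept its call under 10 of 13 alternatives. Ly6g, the surface antigen of mature mouse neutrophils, was at 4.36 ± 0.231 against 4.06 ± 0.239 FPKM (0.08, adjusted p = 0.8998) and Retnlg at 15.7 ± 1.72 against 18.9 ± 7.55 FPKM (-0.19, adjusted p = 0.803). C5ar1, the receptor for the complement fragment C5a, was at 11.3 to 16 FPKM in naive and 26.6 to 33.9 FPKM in LPS libraries (1.11, adjusted p = 2.00e-05). In the list of myeloid lectin and Fc receptor genes 13 of 31 were higher and 0 lower (median 0.20), among them the Fc receptor chain genes Fcer1g (0.99) and Fcgr4 (0.67), Siglece (0.93) and Trem1 (0.37).

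Of 26 primary granule genes 7 rose, 1 fell and 18 did not pass (median 0.04), against 12.6% higher and 24.1% lower over all genes. With median-of-ratios scaling 11 were higher and 0 lower. Together they held 6.59 ± 0.0881% of all summed FPKM in LPS libraries against 6.9 ± 0.162% in naive ones. Ctsg (cathepsin G) rose slightly (2309.7 ± 178 against 1701 ± 163 FPKM, 0.44, adjusted p = 6.46e-04), as did Lyz1 (lysozyme, 0.65) and Ctsd (0.59), while Prtn3 (proteinase 3) was at 6315 ± 212 against 5051 ± 175 FPKM (0.32, adjusted p = 0.0519) and Mpo had an adjusted p of 0.0596 at -0.24. Of 32 secondary and tertiary granule genes 5 were higher, 3 lower and 24 did not pass (median 0.12). Anxa1, the gene of annexin A1, a protein that limits neutrophil recruitment, was called higher, at 490.1, 572 and 524 FPKM in the naive libraries and 1001, 1095 and 1106 FPKM in the LPS libraries (log2 fold change 1.01 ± 0.08, adjusted p = 5.65e-09). Olfm4 (-0.74), which marks a subset of neutrophils, was lower. With length and GC trends removed, neither Lyz1 (0.62, adjusted p = 0.0532) nor Olfm4 (-0.65, adjusted p = 0.0518) passed.

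The calprotectin genes, which encode a heterodimer abundant in neutrophils, were higher in every LPS library yet did not pass. S100a8 stood at 13912, 15722 and 19335 FPKM in the naive libraries and 27398, 24472 and 23443 FPKM in the LPS libraries (0.63, adjusted p = 0.407) and S100a9 at 14878, 18070.1 and 20676 FPKM in the naive libraries and 25565, 24136 and 22964 FPKM in the LPS libraries (0.45, adjusted p = 0.63). The groups did not overlap for either gene. The test takes its spread from all 10 groups of the series. Nor did Lcn2 pass, a lipocalin that binds bacterial iron carriers, at 1218 ± 85 against 792 ± 68.2 FPKM, or the neutrophil surface gene Cd177, at 249 ± 9.2 against 172 ± 13.8 FPKM. With the 2 proNeu2 groups alone in the fit, Lcn2 had an adjusted p of 0.00821 and Cd177 of 0.00558, S100a8 of 0.244 and S100a9 of 0.401, and 12 secondary and tertiary granule genes were higher instead of 5. Ltf (lactoferrin), Ngp and Camp did not pass in either fit, with log2 fold changes of -0.23, -0.03 and 0.33.

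In the LPS receptor pathway, 5 of 24 measured members were higher and 4 lower, with a median of 0.07, against 12.6% higher and 24.1% lower over all genes. Tlr4 was at 12 ± 0.393 against 9.83 ± 0.743 FPKM (0.27, adjusted p = 0.064) and Cd14 at 2.05 ± 0.154 against 1.79 ± 0.895 FPKM (0.18, adjusted p = 0.742). Myd88, the adaptor downstream of the receptor, was slightly higher (0.22), as was Tlr1 (0.54), and the kinase gene Irak1 (-0.33) was slightly lower. Without LPS replicate 1, 2 members were higher instead of 5, and 3 without LPS replicate 2 or any 1 naive library. The lower count was 1 instead of 4 without LPS replicate 1 or 3 or naive replicate 2, with median-of-ratios scaling and with length and GC trends removed. NF-kB and inflammatory genes had 8 of 33 measured members higher and 2 lower (median 0.16), with Saa3, Il1r2 and Clec4e called and Bcl3 (0.61) and Tnfaip2 (0.33) below a fold of 2. The cytokine gene Tnf was at 5.58, 5.08 and 4.76 FPKM in the naive libraries and 3.53, 4.24 and 6.16 FPKM in the LPS libraries (-0.15, adjusted p = 0.809).

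The other side of the response was a broad fall in genes for making ribosomes. Of 46 measured ribosome biogenesis genes, 42 were lower at any size, 0 higher and 4 did not pass, against 24.1% lower over all genes, and the list's median was -0.68. The list held 0.414 ± 0.0202% of the summed FPKM in naive libraries and 0.258 ± 0.0364% in LPS libraries. Dkc1, which encodes dyskerin, the enzyme that modifies uridine in ribosomal RNA, went from 44.7, 46.5 and 44.8 FPKM in the naive libraries to 18.5, 24.7 and 20.9 FPKM in the LPS libraries (log2 fold change -1.06 ± 0.08, adjusted p = 1.70e-09). Gnl3, the nucleolar GTPase nucleostemin, was at 30.6, 26.5 and 30.6 FPKM in the naive libraries and 11.1, 16.1 and 14.2 FPKM in the LPS libraries (log2 fold change -1.04 ± 0.11, adjusted p = 9.98e-08). All naive values lay above all LPS values in both genes.

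Members from early and late steps of the pathway fell. The small nucleolar RNP core protein genes Nop56 (42.9 ± 5.53 against 76.4 ± 7.22 FPKM, -0.82), Nop58 (-0.78) and Fbl (69.9 ± 13.7 against 90.04 ± 3.92 FPKM, -0.38), the RNA polymerase I subunit genes Polr1a (-0.62) and Polr1b (-0.65), the helicase gene Ddx21 (-0.97), the small subunit processome genes Heatr1 (-0.84) and Utp20 (-0.81) and the large subunit factor gene Bop1 (-0.50) were all lower. So were Ncl, the nucleolin gene (85.5 ± 12.4 against 123 ± 2.02 FPKM, -0.53), and the polyamine enzyme genes Odc1 (-0.86) and Srm (-0.98) that the list also holds. Npm1 (nucleophosmin) was at 231 ± 35.2 against 272 ± 15.9 FPKM (-0.25, adjusted p = 0.0698). LPS replicate 1 was the lowest library for Ncl, Npm1, Fbl, Nop56, Dkc1 and Gnl3, and without it 39 members were lower, with a median of -0.57. After removal of length and GC trends 40 were lower and 0 higher, with the same median of -0.57.

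Myc, the transcription factor known to drive ribosome biogenesis genes, was lower too, at 52.1, 54.3 and 46.9 FPKM in the naive libraries and 22.2, 28.4 and 24.1 FPKM in the LPS libraries (log2 fold change -1.01 ± 0.12, adjusted p = 9.45e-07). Its fold lies at the limit, and the call, not the direction, is lost under 6 of 14 alternatives. The E-box CACGTG, which MYC binds among other factors, was found in the windows of 9 of 41 ribosome biogenesis genes (21.95%), 5 of 23 called lower genes (21.7%) and 1 of 33 called higher genes (3.03%), against 10.9% of all windows. This pattern was added after the fall of the list had been seen. Nop2, the gene of an RNA methyltransferase of the large subunit (13.6 ± 2.2 against 23.7 ± 2.13 FPKM, -0.76), has it at -60, shown in capitals in the 100 upstream bases (chr6:125131783-125131882, plus strand, GRCm38.p6).
Nop2: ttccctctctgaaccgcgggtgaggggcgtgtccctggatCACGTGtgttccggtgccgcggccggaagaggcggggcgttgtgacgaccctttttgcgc

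Kit, the receptor for stem cell factor, dropped from 62.2, 59.6 and 56.3 FPKM in the naive libraries to 26.4, 28 and 21.3 FPKM in the LPS libraries (log2 fold change -1.21 ± 0.08, adjusted p = 3.07e-10). Slc7a5, the light chain of a transporter of large neutral amino acids, was at 21.6, 21.2 and 20.8 FPKM in the naive libraries and 6.12, 11.2 and 10.9 FPKM in the LPS libraries (log2 fold change -1.13 ± 0.15, adjusted p = 2.86e-06), lowest in LPS replicate 1. Tfrc, the transferrin receptor that brings iron into dividing cells, was at 39.4 ± 4.6 against 86.2 ± 6.44 FPKM (-1.11, adjusted p = 3.76e-06). The surface molecule genes Alcam (-1.01) and Clec4b2 (-1.07) and Fut4, a fucosyltransferase gene (-1.05), were called lower as well. In the list of stem and early progenitor genes 5 of 20 were lower, Kit, Sox4, Hoxa9, Adgrg1 and Tal1, near the 24.1% of all genes that were lower, and 1 was higher, Lmo2. Hoxa9 did not pass with median-of-ratios scaling (adjusted p = 0.0607) or with length and GC trends removed (-0.23, adjusted p = 0.147). Dusp6, a phosphatase gene that is induced by and restrains ERK signalling, fell most in the immediate early list (6.63, 6.65 and 7.05 FPKM in the naive libraries and 2.14, 2.04 and 1.71 FPKM in the LPS libraries, -1.39, adjusted p = 2.88e-05). Other leading lower genes were Dnph1, a nucleotide hydrolase gene (-1.12), Xist (105, 47.6 and 57.2 FPKM in the naive libraries and 42.3, 25.9 and 28.1 FPKM in the LPS libraries, -1.05, adjusted p = 5.67e-04), the RNA that silences the inactive X chromosome, and Mir3113 (-1.44). Xist was no longer called without naive replicate 1 (-0.72), without LPS replicate 2 (-0.92) or 3 (-0.97), with median-of-ratios scaling (-0.98), with length and GC trends removed (-0.70) or in a fit of the compared groups alone (adjusted p = 0.0510). The values of Mir3113 rest on 9 to 49 reads over 76 bases, and 15 of the 52 lower genes have exons of 200 bases or less.

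**Figure D3:**
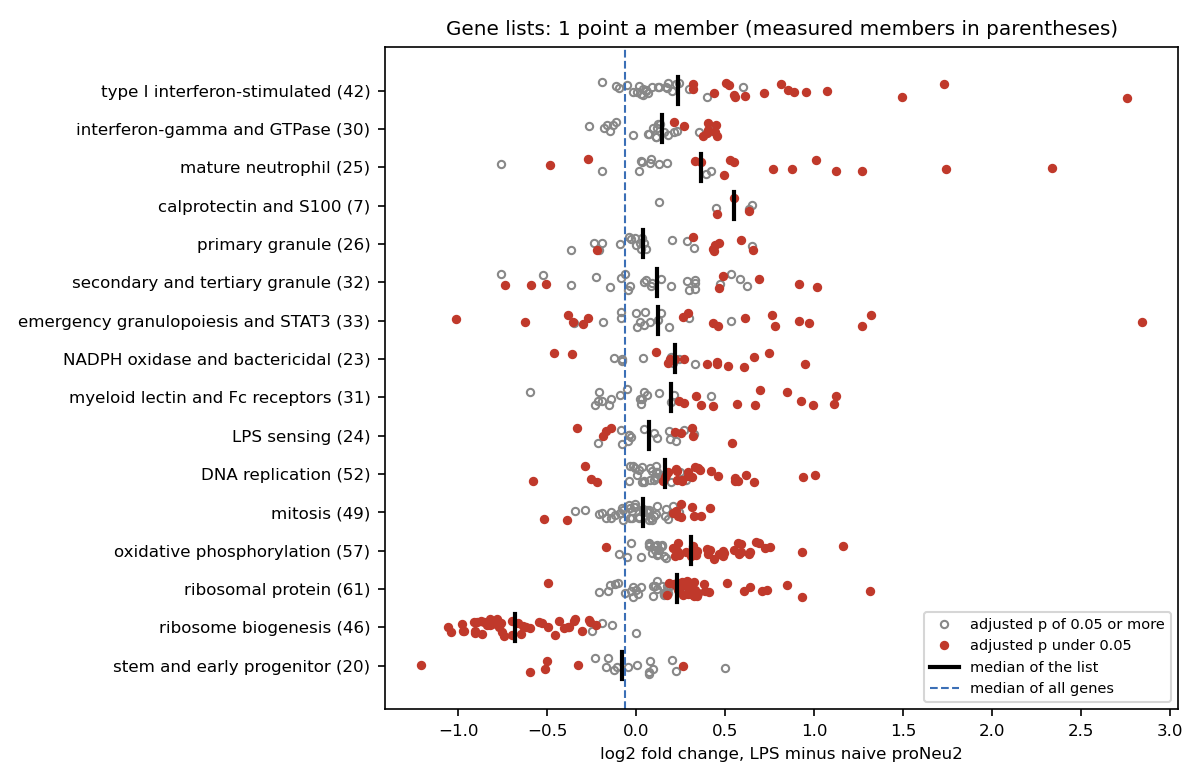
Log2 fold change (LPS minus naive proNeu2, horizontal axis) of each measured member of 16 gene lists, 1 point a gene, filled where the adjusted p was under 0.05. Black bars are list medians and the dashed line is the median of all genes (-0.07); points are spread vertically to be seen. Of the 16 lists drawn, ribosome biogenesis has the lowest median (-0.68), and the calprotectin and S100 list (0.55) and the mature neutrophil list (0.37) have the highest.

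Among cell cycle genes, of 52 DNA replication genes 24 were higher, 4 lower and 24 did not pass (median 0.16, against 12.6% higher over all genes). Ccne1, the cyclin of the entry into S phase, rose, at 8.73 to 9.99 FPKM in naive and 18.4 to 22.3 FPKM in LPS libraries (log2 fold change 1.00 ± 0.12, adjusted p = 8.88e-07), with E2f2 (0.94), a transcription factor of the same step, and E2f1 (0.46). The nucleotide supply genes Rrm2 (0.66) and Tk1 (0.57), the flap nuclease gene Fen1 (0.62) and the sliding clamp gene Pcna (308 ± 3.02 against 249 ± 23.8 FPKM, 0.31, adjusted p = 8.25e-04) were higher too. The DNA polymerase subunit genes Pold1 (-0.22), Pold2 (-0.58) and Pole (-0.25) were lower, Pole not with median-of-ratios scaling (adjusted p = 0.0949), and the helicase gene Mcm2 was at 91.5 ± 5.6 against 92.5 ± 3.58 FPKM (-0.02, adjusted p = 0.837). Mitosis genes moved less, with 9 of 49 higher and 2 lower (median 0.04), and 3 higher without LPS replicate 2, 4 without naive replicate 1 or 3. The proliferation marker gene Mki67 was at 121 ± 14.4 against 156 ± 33 FPKM (-0.35, adjusted p = 0.0503).

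Ccnd2, a D-type cyclin which growth factors induce, fell (6.48 ± 0.53 against 14.1 ± 1.38 FPKM, -1.01, adjusted p = 1.10e-07), and its partner kinase gene Cdk6 fell as well (-0.66), while Ccnd3 was higher (0.51). The inhibitor genes Cdkn1a (0.35), Cdkn1b (0.48) and Cdkn2d (0.53) were higher. In the list of cell cycle inhibitors, which also holds Cdk6, 5 of 18 measured members were higher and 3 lower (median 0.10). Among apoptosis genes 8 of 22 were higher and 2 lower (median 0.16), and 5 were higher without naive replicate 1 or LPS replicate 2. Both lists stand beside 12.6% higher and 24.1% lower over all genes. Pmaip1, which encodes the BH3-only protein Noxa, rose 4.98-fold (5.47, 4.45 and 4.8 FPKM in the LPS libraries against 0.875, 1.07 and 1.01 FPKM in the naive ones, 1.57, adjusted p = 1.61e-06). The survival gene Bcl2 was lower (-0.47), but not with length and GC trends removed (-0.23, adjusted p = 0.0528).

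Genes of the ribosome itself were mostly higher or not past the threshold. Of 61 ribosomal protein genes 33 were higher and 1 lower (median 0.23), and of 57 nuclear genes of oxidative phosphorylation 35 were higher and 1 lower (median 0.31). The shares over all genes were 12.6% higher and 24.1% lower. Uqcrq (0.93), Cox6a1 (0.75) and Rpl38 (0.93) were higher by less than 2-fold. These genes are short, with median exon lengths of 1044 and 1115 bases against 2992 bases over all genes, and fold change fell with length above 200 bases: the median was 0.15 for genes of 200 to 500 bases and -0.15 above 4000 bases. With length and GC trends removed the counts were 28 higher and 4 lower for ribosomal proteins and 32 higher and 0 lower for oxidative phosphorylation. Without naive replicate 1, 17 ribosomal protein genes were higher, and with the compared groups alone in the fit 10 were, with 23 for oxidative phosphorylation.

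**Figure D4:**
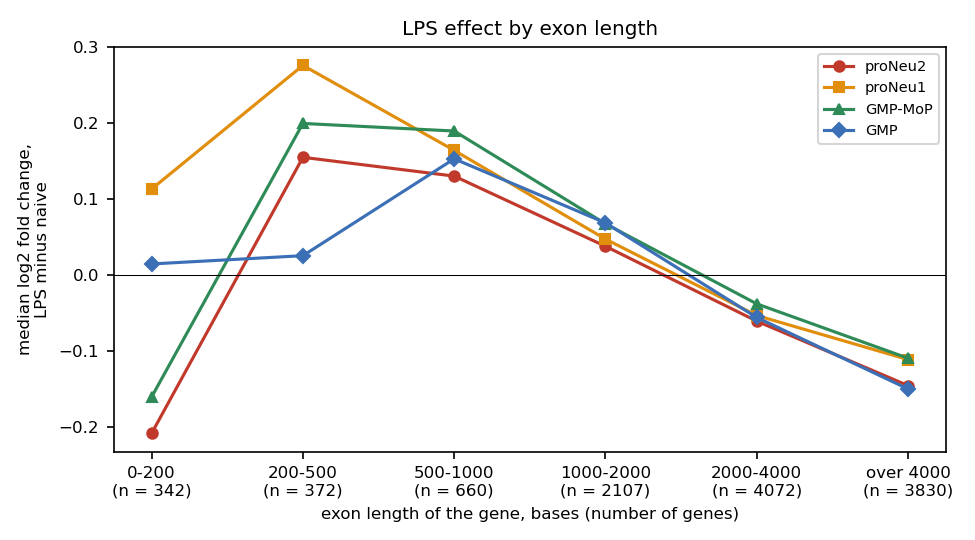
Median log2 fold change (LPS minus naive libraries of the same population, vertical axis) of genes in 6 classes of exon length (horizontal axis, bases, with the number of genes), 1 line for each of 4 populations. Above 500 bases the median falls with length in all 4 lines; in proNeu2 it goes from 0.13 in genes of 500 to 1000 bases to -0.15 above 4000 bases.

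The counts of the next lists stand beside 12.6% higher and 24.1% lower over all genes. Of the acute phase and iron list, 7 of 17 measured members were higher and 3 lower (median 0.47). 13 of 23 NADPH oxidase and bactericidal genes were higher and 2 lower (median 0.22), with superoxide dismutase Sod1 (0.95), Nqo1 (0.74), G6pdx, the NADPH source of the pentose phosphate pathway (0.66), and the oxidase subunit gene Ncf1 (0.39). Cybb, the membrane subunit of the oxidase, was at 309.9 ± 31.2 against 246 ± 13.5 FPKM (0.33, adjusted p = 0.153). The ferritin genes Fth1 (0.51) and Ftl1 (0.68) and the metallothionein gene Mt1 (93.3 ± 5.9 against 45.5 ± 4.13 FPKM, 1.02, adjusted p = 4.40e-06) were higher, while Tfrc was lower. Of 25 glycolysis genes 7 were higher and 5 lower. The glucose transporter gene Slc2a3 (25.6 ± 2.002 against 13.6 ± 1.35 FPKM, 0.87, adjusted p = 1.26e-04) and the lactate exporter gene Slc16a3 (0.80) were higher, and Pdk1 (-0.77) and Hk2 (-0.39) lower. The unfolded protein response (8 higher and 3 lower of 29) and cholesterol synthesis (8 higher and 4 lower of 27) had medians of 0.05 and 0.13. Their higher counts fell to 4 without naive replicate 1 or LPS replicate 3, and to 3 without naive replicate 2, respectively.

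The response was then set beside that of the other populations, each against its own naive libraries. Across the 11383 genes, log2 fold changes in proNeu2 correlated at 0.63 with those in proNeu1, 0.68 with GMP-MoP and 0.24 with GMP. Over the 5846 genes whose higher proNeu2 group mean was at least 10 FPKM, proNeu1 came first. The correlations were then 0.84 with proNeu1, 0.77 with GMP-MoP and 0.29 with GMP. These are descriptions over genes, which share their libraries and are not replicates. Of the 61 genes called higher in proNeu2, 31 were also called higher in proNeu1, 22 in GMP-MoP and 17 in GMP. In those populations 117 (1.03% of all genes), 82 (0.72%) and 104 (0.914%) genes were called higher in all, so that the shared genes make up 26.5%, 26.8% and 16.3% of them. Of the 52 called lower, 14, 8 and 2 were called lower there, of 50 (0.439%), 47 (0.413%) and 346 (3.04%). Cebpb rose in all 4, by 1.32 in proNeu2, 1.17 in proNeu1, 1.48 in GMP-MoP and 1.504 in GMP. Saa3 rose by 2.84, 2.09, 1.70 and 0.52 in the same order.

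The list of ribosome biogenesis genes was described in each population. Its median was -0.68 in proNeu2, -0.30 in proNeu1 (26 of 46 lower), -0.28 in GMP-MoP (27 lower) and 0.21 in GMP, where 21 were higher and 0 lower. The difference of the LPS effects was tested for each member. Against proNeu1, 0 of 46 differed by limma at an adjusted p under 0.05, while 32 (69.6%) had an unadjusted p under 0.05, against 9.16% of all genes. The members share their libraries and are not replicates, so that share is a description and no test of the list. Against GMP-MoP 8 differed: Dkc1, Gar1, Utp20, Wdr43, Gnl3, Bysl, Heatr1 and Srm. For Gnl3 the LPS effect was -1.04 in proNeu2 and -0.37 in GMP-MoP (difference -0.67 ± 0.15, adjusted p = 0.0188). Type I interferon-stimulated genes had medians of 0.23 in proNeu2, 0.29 in proNeu1, 0.46 in GMP-MoP and -0.23 in GMP, and 1 of the 42, Ifi204, differed between proNeu2 and GMP-MoP. In both proNeu2 and proNeu1 the LPS library of replicate 3 held the highest sum of this list.

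**Figure D5:**
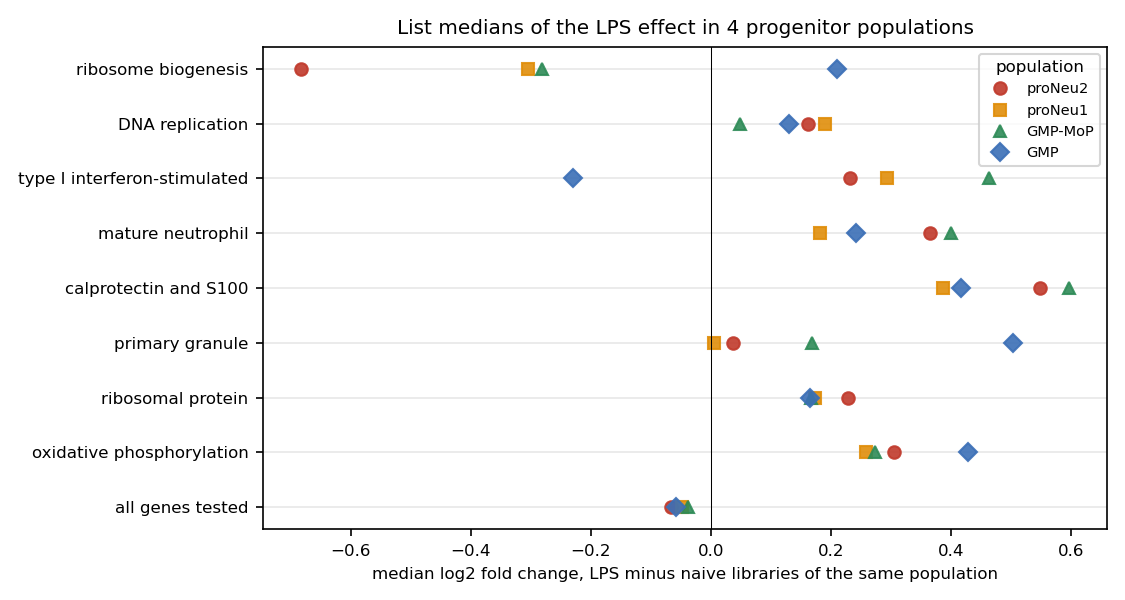
Median log2 fold change (LPS minus naive libraries of the same population, horizontal axis) of 8 gene lists and of all genes in proNeu2, proNeu1, GMP-MoP and GMP, 1 symbol a population. For ribosome biogenesis proNeu2 stands at -0.68, proNeu1 at -0.30, GMP-MoP at -0.28 and GMP at 0.21. For all genes the 4 symbols lie between -0.07 and -0.04.

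Tested as a difference of LPS effects, proNeu2 and proNeu1 parted in few genes: 4 were called higher in proNeu2 (0.0351% of the 11383) and 14 lower (0.123%). Of the 14, 13 were immunoglobulin genes or Jchain, transcripts of antibody-forming cells; the source of the RNA was not tested. Jchain was at 44.5 ± 22 FPKM in LPS proNeu1 and 6.04 ± 4.48 in naive proNeu1, and at 0.207 ± 0.165 and 0.166 ± 0.243 in the proNeu2 groups. The effect on Slc2a3 differed too: it rose in proNeu2 (27.8, 23.8 and 25.1 FPKM in the LPS libraries against 14.5, 14.1 and 12 FPKM in the naive ones) and was at 12.6 ± 4.64 against 15.3 ± 2.04 FPKM in LPS and naive proNeu1, where it did not pass (difference 1.18 ± 0.22, adjusted p = 0.00904). Car1, a carbonic anhydrase gene of red cell precursors, fell less in proNeu2 than in proNeu1 (difference 1.49 ± 0.31, adjusted p = 0.0246). Coro2a (difference 0.73 ± 0.11, adjusted p = 0.00116) rose more in proNeu2, by less than 2-fold. The counts rest on single proNeu1 libraries: 9 were higher without naive proNeu1 replicate 1, 13 without LPS proNeu1 replicate 2, and 2 higher and 30 lower without LPS proNeu1 replicate 3.

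Against GMP-MoP, 12 genes were called higher in proNeu2 (0.105%) and 14 lower (0.123%), or 15 and 10 with length and GC trends removed. Lipg was at 51.9 ± 21.6 against 7.44 ± 2.15 FPKM in LPS and naive proNeu2 and at 0.105 ± 0.0565 FPKM in LPS GMP-MoP, and it is listed at 0 in all 3 naive GMP-MoP libraries (difference 2.43 ± 0.45, adjusted p = 0.00491). On the GMP-MoP side it did not pass. With these levels near 0 the difference rests on the pseudocount: it was 1.71 (adjusted p = 0.281) with a pseudocount of 0.1 and -1.52 (adjusted p = 0.910) with voom on recovered reads. Coro2a (difference 1.36 ± 0.11, adjusted p = 4.63e-08), H1f2 (difference 1.35 ± 0.27, adjusted p = 0.00947) and Slc2a3 (difference 1.53 ± 0.22, adjusted p = 3.62e-04) moved further up in proNeu2. Chst13, a sulphotransferase gene, differed in that it fell less (-0.42 in proNeu2 against -1.56). On the other side were genes that rose in GMP-MoP. Ifi30, a lysosomal thiol reductase gene, rose from 6.98 ± 2.13 to 33 ± 7.69 FPKM there and from 1.34 ± 0.226 to 2.63 ± 0.468 in proNeu2. The beta-glucan receptor gene Clec7a, the chemokine receptor gene Ccr2 and the protease gene Ctsc rose in GMP-MoP by 0.94, 1.02 and 0.97, against -0.22, -0.02 and -0.03 in proNeu2, where none of the 3 passed. Wfdc21 rose in both, more in GMP-MoP (2.33 against 0.88). Of 20 alternatives, the called difference held under 8 for Wfdc21, 9 for Ccr2, 11 for Ctsc and 13 for Clec7a. The lower count was 24 without naive GMP-MoP replicate 3, and 6 to 9 without naive GMP-MoP replicate 1 or 2, LPS GMP-MoP replicate 2, naive proNeu2 replicate 3, or LPS proNeu2 replicate 1 or 3. Both differences use the same proNeu2 libraries and are not independent of each other.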

How the data were processed

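The authors deposited 1 table of FPKM values for 30 RNA-seq libraries of mouse bone marrow progenitors. Per the submitters' processing notes, the tools were Trimmomatic 0.38.0, STAR 2.7.8 and featureCounts 2.0.1 with GRCm38 (mm10); their roles and settings, the handling of reads that fit several genes and the strand setting are not given in the sources used here. The lowest mean of a gene was 1.00 FPKM, so a filter of FPKM 1 in 3 libraries removed 0 genes. Values of all 11383 genes were whole multiples of 1 read (within 0.02 reads or 1e-07 of the count, at most 0.1), which gave whole reads and the depth.

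limma 3.58.1 (R 4.3.3) was fitted to log2(FPKM + 1) with an intensity trend over all 30 libraries in 10 groups, with Benjamini-Hochberg adjustment over all genes. The fit was tested on simulated data. The count at any size was chosen after the data were seen, and the members and gene lists were chosen with earlier results of these data known. The leading genes are the 15 highest and 15 lowest called genes whose higher mean was 10 FPKM or more and whose LPS and naive values did not overlap, without predicted genes and immunoglobulin segments. 25 higher and 13 lower genes qualified. Some results are not reported here. Other list members were named after their values were seen. Labels do not say whether replicates came from separate mice, so p-values measure the spread between these libraries. Older histone symbols were matched through RefSeq. Upstream sequences are from RefSeq, GRCm38.p6. The alternatives were another pseudocount, scaling, filter, voom on the recovered reads, the compared groups alone, the replicate block, each library left out and, added after seeing the data, removal of length and GC trends.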

Additional observations from a re-analysis of the deposited data

Results flagged for a closer look

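The LPS effect differed between proNeu2 and another population, by the test of the difference itself in limma, for 12 named genes. All values here are differences of log2 fold changes, proNeu2 minus the other population. Against proNeu1 they were 1.49 for Car1 (adjusted p = 0.0246), 1.18 for Slc2a3 and -2.68 for Jchain (adjusted p = 0.046). Jchain lost its call under 14 of 20 alternatives, Car1 under 10 of 20 and Slc2a3 under 2 of 20 (the compared groups alone and without LPS proNeu1 replicate 3). Against GMP-MoP they were 2.43 for Lipg, 1.53 for Slc2a3, 1.36 for Coro2a, 1.35 for H1f2 and 1.14 for Chst13 on the higher side. Lipg was near 0 FPKM in GMP-MoP, and its difference was 1.71 (adjusted p = 0.281) with a pseudocount of 0.1 and -1.52 (adjusted p = 0.910) with voom. On the lower side stood -1.47 for Ifi30, -1.45 for Wfdc21, -1.16 for Clec7a, -1.04 for Ccr2 and -1.003 for Ctsc. Coro2a, H1f2, Slc2a3 and Chst13 kept their call against GMP-MoP under every alternative that gave a value, and Wfdc21 lost it under 12 of 20. Ccr2 kept its call under 9 of 20, Ctsc under 11, Clec7a under 13 and Ifi30 under 19 (all but voom).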

How the results depend on the processing

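Against 61 higher and 52 lower genes, a pseudocount of 0.1 gave 151 and 240, voom on recovered reads 155 and 259, and a mean FPKM of at least 5 gave 37 and 31. Leaving out 1 library gave 55 to 82 higher and 41 to 67 lower. At any size, leaving out 1 library gave 1055 to 1347 higher and 2172 to 2587 lower, and removal of length and GC trends gave 1714 lower. Of the 42 called genes that the naming rule covers, 27 kept their call under all 14 alternatives, 15 lost it under some and 0 reversed. For the difference from proNeu1, 1 gene was lower with a mean FPKM of at least 5 and 1 with voom, and leaving out 1 library gave 2 to 13 higher and 10 to 30 lower. For the difference from GMP-MoP, a pseudocount of 0.1 gave 20 higher, a mean of at least 5 gave 5 higher and 7 lower, and leaving out 1 library 9 to 17 higher and 6 to 24 lower. Lipg reversed there with voom, at -1.52 (adjusted p = 0.910). In a fit of the compared groups alone, Fbl, Oasl2, Pold1, Pole, Psmb8 and Psme2 did not pass, with adjusted p of 0.0894, 0.0707, 0.0553, 0.0976, 0.108 and 0.0520. The cause of these shifts was not tested.

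With the replicate block, 62 genes were higher and 51 lower. Same-numbered LPS and naive proNeu2 libraries had deviations correlated at 0.0934, 0.116 and 0.0539, and each LPS library correlated best with its own number. The numbers were not taken as pairs. Libraries of different populations were not compared in this way. Erythroid and megakaryocyte sums were highest in replicate 2 of both LPS proNeu2 (201 FPKM) and LPS proNeu1 (224 FPKM). Type I interferon-stimulated sums were highest in replicate 3 of both (610 and 608 FPKM). The labels do not say whether such libraries share mice, and the main fit took them as independent. Low genes limit the precision: 68 of the 113 called genes had both means under 10 FPKM.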
